A study of Drosophila melanogaster with 12 samples.

Results

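The mitochondrial genome transcripts described here were the rows of a gene count table whose symbol begins with mt:, 37 of 17558 rows. Of these, 13 were protein-coding genes, 2 were ribosomal RNA (rRNA) genes and 22 were transfer RNA (tRNA) genes. The edgeR expression filter, with a minimum count of 10, was passed by 19 rows, namely the 13 protein-coding rows, both rRNA rows and 4 of the tRNA rows. RNA was sequenced from midguts of virgin Drosophila melanogaster of both sexes, in 12 libraries that form 4 groups of 3. In dsxRNAi females and dsxRNAi males, an RNA interference construct against doublesex (dsx), a transcription factor gene of somatic sex determination, was combined with the enterocyte driver mex1-Gal4 and the temperature-sensitive repressor tub-Gal80ts. In control females and control males, mex1-Gal4 and tub-Gal80ts were combined with UAS-GFP. The labels list y[1] v[1] over w[*] in every group and give the same genotype text for both sexes. Flies spent 6 days at 18 degrees C, where Gal80 blocks the driver, then 4 days at 29 degrees C, where it is released, and were 10 days old at sampling. The stated question of the series is what dsxRNAi does to the midgut of males and of females. The labels do not say whether the 3 libraries of a group came from separate animals or pools, so p-values measure the spread between these libraries.

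The mitochondrial genome of the fly is a small circle that is transcribed from both strands into long precursors, from which tRNAs are cut out and messenger and ribosomal RNAs are released. Its proteins are core subunits of the respiratory chain (complexes I, III and IV) and of ATP synthase (complex V), and each of these complexes also needs subunits made from nuclear genes. Its rRNAs and tRNAs serve the mitochondrial ribosome. Fly mitochondrial messenger RNAs carry short poly-A tails, and the large rRNA can also be polyadenylated, so these RNAs can be recovered in poly-A selected libraries such as those used here.

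On build dm6, where the sequence is named mitochondrion_genome, 9 of the 13 protein-coding genes lie on the plus strand, called the major strand here. They are mt:ND2 (240 to 1263), mt:CoI (1474 to 3009), mt:CoII (3083 to 3767), mt:ATPase8 (3907 to 4068), mt:ATPase6 (4062 to 4736), mt:CoIII (4736 to 5524), mt:ND3 (5608 to 5961), mt:ND6 (9971 to 10495) and mt:Cyt-b (10499 to 11635). The other 4 lie on the minus strand, called the minor strand here, and are mt:ND5 (6409 to 8125), mt:ND4 (8207 to 9545), mt:ND4L (9545 to 9835) and mt:ND1 (11721 to 12659). The minor strand also carries mt:lrRNA, the large rRNA (12735 to 14058), and mt:srRNA, the small rRNA (14131 to 14916). Several neighbours share bases: mt:ATPase8 and mt:ATPase6 overlap by 7 bases, and mt:ATPase6 with mt:CoIII and mt:ND4 with mt:ND4L by 1 base each. The strand setting of the counting is not given in the sources used here, so reads from overlapping or antisense neighbours cannot be told apart.

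Total counts ran from 36212113 to 45068874 per library. Libraries of 1 group were further apart than sampling of reads alone gives, with chi-square values of 25.0 to 172 per degree of freedom. The targeted gene dsx had 16.5, 22.3 and 19.9 normalised CPM (CPM relative to the TMM-scaled library size) in dsxRNAi females, against 18.6, 20.3 and 21.3 in control females, and the groups overlapped. In males dsx had 35.2, 43.1 and 41.2 normalised CPM under dsxRNAi and 70.1, 59.1 and 53.2 in controls, a log2 change of -0.61 (edgeR adjusted p = 0.00643) with no overlap. The 9 enterocyte markers were all detected, mex1 among them at 171 to 256 normalised CPM. Muscle markers summed to 2175 to 2801 normalised CPM, so midgut muscle was part of the tissue. In such bulk samples, fewer cells of a type and less RNA per cell cannot be told apart.

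The share of midgut counts taken by mitochondrial messenger RNAs overlapped between all 4 groups. The 13 protein-coding rows took 2.85, 2.63 and 2.57% of all counts in dsxRNAi females and 2.85, 2.84 and 2.64% in control females. They took 2.78, 2.41 and 2.80% in dsxRNAi males and 2.64, 2.78 and 2.44% in control males. The means were 2.68 ± 0.146% in dsxRNAi females, 2.78 ± 0.116% in control females, 2.66 ± 0.220% in dsxRNAi males and 2.62 ± 0.170% in control males (SD, n = 3). Between dsxRNAi and control, with sex as stratum, the share differed by -0.015 on the log2 scale (exact two-sided permutation p = 0.77, adjusted p = 0.925 over the 10 permutation tests on shares and ratios). Between females and males, with genotype as stratum, it differed by 0.048 (exact permutation p = 0.34, adjusted p = 0.6667). The exact permutation test cannot go below p = 0.1 for 3 libraries against 3, or below 0.005 for 2 strata. The 2 rRNA rows took more counts than the messenger RNAs, with 4.09 ± 0.266% in dsxRNAi females, 4.57 ± 0.237% in control females, 3.69 ± 0.432% in dsxRNAi males and 3.38 ± 0.147% in control males. The 22 tRNA rows together held 86 to 219 counts per library. The 95% Wilson intervals of the protein-coding, rRNA and whole mitochondrial shares reached at most 0.0082 percentage points to either side, for counting error only.

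**Figure D1:**
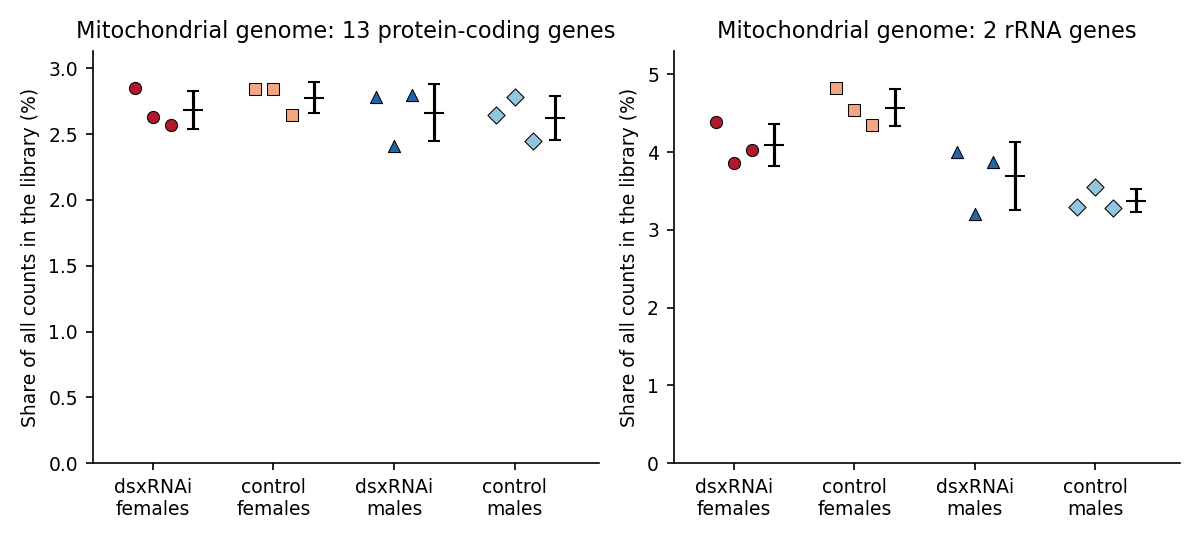
Share of all counts (%) in each library taken by the 13 mitochondrial protein-coding rows (left) and the 2 rRNA rows (right), with the group mean and SD beside the 3 libraries of each group. The protein-coding shares overlap in all 4 groups, between 2.41 and 2.85%, while the rRNA shares of control females, 4.35 to 4.82%, lie above those of control males, 3.29 to 3.54%.

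The counts of the single mitochondrial rows in these poly-A selected libraries were far apart. On the scale of normalised CPM per kb of gene, averaged over the 12 libraries, mt:lrRNA stood first at 29720 (range 22425 to 35894), and before division by length it ranked 1 among all rows of the table. Next came messenger RNAs of complex IV, cytochrome c oxidase: mt:CoIII had 9025 normalised CPM per kb (7207 to 10494) and mt:CoI 6260 (4880 to 7387). Cytochrome b of complex III, mt:Cyt-b, followed with 3857 (3381 to 4637), above the complex IV subunit mt:CoII with 2928 (2420.4 to 3464), and the ATP synthase subunit mt:ATPase6 had 2207 (1898 to 2546). The complex I subunits were lower on the same scale, with mt:ND1 at 707, mt:ND3 at 542, mt:ND5 at 473 and mt:ND4 at 453. The lowest protein-coding rows were mt:ATPase8 at 81.0, mt:ND2 at 31.2, mt:ND6 at 18.9 and mt:ND4L at 4.38 normalised CPM per kb, and mt:srRNA was at 19.3. This order was the same in all 12 libraries except at 2 places. The level of mt:ND5 was above that of mt:ND4 in 10 of 12 libraries, and mt:srRNA was above mt:ND6 in 6 of 12. No test of these pairs was made.

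**Figure D2:**
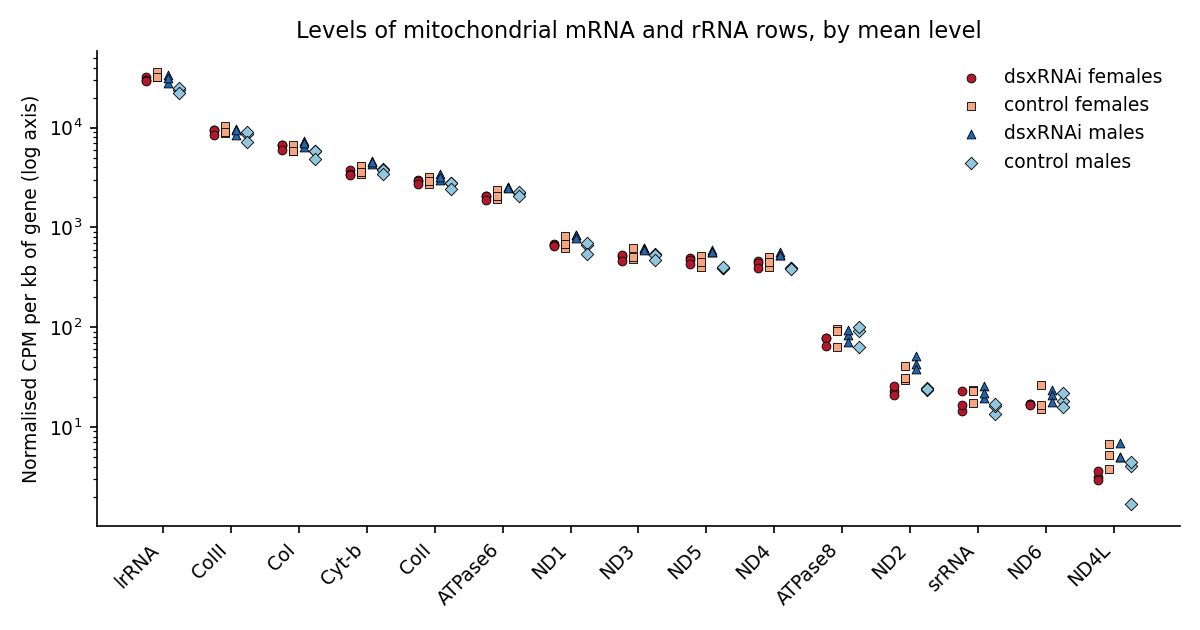
Normalised CPM per kb (log axis) of the 13 protein-coding and 2 rRNA rows in each of the 12 libraries, in order of mean level, with symbols for the 4 groups. The levels span from 4.38 for ND4L to 29720 for lrRNA, and the libraries of the 4 groups lie close together for most genes.

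Neighbouring genes of the same strand could differ widely in these counts. The level per kb of mt:ATPase6 was 27.2 times that of mt:ATPase8, which overlaps its start (range over libraries 22.6 to 35.1). Likewise mt:ND4 had 103 times the level per kb of mt:ND4L (74.1 to 231), and mt:Cyt-b 204 times that of mt:ND6 (156 to 258). The level of mt:CoI was 200.4 times that of mt:ND2 (145 to 291), and that of mt:lrRNA 1540.0 times that of mt:srRNA (1309 to 2234). For comparison, mt:CoI had 2.14 times the level of mt:CoII (2.01 to 2.26). How reads over shared or short genes were assigned by the counting is not given in the sources used here, and its part in these ratios was not tested. Recovery by poly-A selection can differ between these RNAs, and its part was not tested either. Within the protein-coding counts, mt:CoI took 33.9 to 37.4%, mt:CoIII 24.0 to 28.1% and mt:Cyt-b 14.4 to 17.8% over the 12 libraries, whereas mt:ND2 took 0.0853 to 0.168% and mt:ND4L 0.0022 to 0.00667%.

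In males, 3 mitochondrial messenger RNAs of complex I were higher under dsxRNAi. Of the 13 protein-coding genes, 3 rose and 0 fell by edgeR's quasi-likelihood test, at an adjusted p under 0.05, while 14.6% of all genes tested were called in either direction, 8.05% as higher and 6.59% as lower. They are 3 of the 7 mitochondrial subunits of complex I, NADH dehydrogenase. The subunit mt:ND5 had 1021, 969 and 971 normalised CPM in dsxRNAi males and 677, 667 and 689 in control males. The subunit mt:ND4 had 764, 702 and 703 in dsxRNAi males and 522, 523 and 518 in control males. In both genes each dsxRNAi library lay above each control library. Their log2 changes were 0.54 ± 0.096 for mt:ND5 (SE; edgeR adjusted p = 0.00298) and 0.47 ± 0.096 for mt:ND4 (edgeR adjusted p = 0.00627). The other gene called, mt:ND2, is described below with its opposite change in females.

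The remaining complex I rows of males did not pass the test. Of these, mt:ND1 averaged 769.6 ± 31.5 normalised CPM in dsxRNAi males and 598 ± 76.2 in control males (SD, n = 3; log2 change 0.36, edgeR adjusted p = 0.0524). It was called with no expression filter, with a minimum count of 50, with the replicate block and by DESeq2. The row mt:ND3 had 219, 219 and 209.6 in dsxRNAi males and 194, 189 and 166 in control males (log2 change 0.24). The low rows mt:ND4L, at 1.64 ± 0.316 in dsxRNAi males and 0.985 ± 0.435 in control males, and mt:ND6, at 10.8 ± 1.50 in dsxRNAi males and 9.77 ± 1.61 in control males, had wider intervals.

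Of the 6 genes of complexes III, IV and V, edgeR called 0 in males at an adjusted p under 0.05. At an unadjusted p under 0.05, 3 of them passed, mt:CoI, mt:CoII and mt:Cyt-b, and DESeq2 called these 3. For complex III, mt:Cyt-b averaged 5104 ± 214 normalised CPM in dsxRNAi males and 4208 ± 239 in control males (log2 change 0.28, edgeR adjusted p = 0.0964). For complex IV, mt:CoI averaged 10631 ± 773 in dsxRNAi males and 8487 ± 859.7 in control males (log2 change 0.32, edgeR adjusted p = 0.0933). Of the other oxidase subunits, mt:CoII averaged 2201 ± 166 in dsxRNAi males and 1817 ± 138 in control males, and mt:CoIII 7249.6 ± 495 in dsxRNAi males and 6539 ± 753 in control males. For complex V, mt:ATPase6 averaged 1699 ± 19.2 in dsxRNAi males and 1479 ± 72.1 in control males, and mt:ATPase8 averaged 13.4 ± 1.92 in dsxRNAi males and 13.8 ± 3.13 in control males. Over the 13 genes the median log2 change in males was 0.28, beside -0.014 over all 9686 genes tested, and 12 of the 13 were above 0. Of the 13, 10 did not overlap between the groups, as did 38.6% of all genes tested. At an unadjusted p under 0.05, 8 of 13 passed. The share of all genes tested that passed at this unadjusted threshold is not given here, so the unadjusted counts cannot be set against it.

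The size of the shift in males depended on how libraries were scaled. The TMM factors were 0.865 to 0.935 in dsxRNAi males and 1.03 to 1.11 in control males, and the 10 most abundant nuclear genes took 18.1 ± 0.609% of counts in dsxRNAi males and 13.7 ± 0.630% in control males. With total counts and no scaling factor, 8 of the 13 genes were above 0 with a median of 0.028, while the median over all genes tested moved to -0.27. On that scale edgeR called 33.0% of all genes tested, 3.39% as higher and 29.6% as lower. The calls of mt:ND2, mt:ND5 and mt:ND4 held on that scale. When libraries were scaled to the mitochondrial protein-coding total, an alternative chosen after seeing the data, mt:ND5 had a log2 change of 0.26 (edgeR adjusted p = 0.0575) and mt:ND4 one of 0.20 (edgeR adjusted p = 0.123), and 1 gene, mt:ND2, was called. The enterocyte markers summed to 63356 to 73997 normalised CPM in dsxRNAi males and 47842 to 52351 in control males. This sum follows its most abundant members. The marker mex1 made up little of it, at 247, 256 and 212 in dsxRNAi males and 171, 194 and 203 in control males (log2 change 0.33, edgeR adjusted p = 0.0516). The muscle markers summed to 2669 to 2801 in dsxRNAi males and 2654 to 2716 in control males. Markers of 2 other gut cell types were lower without overlap: the 4 progenitor markers summed to 43.5 to 59.2 in dsxRNAi males and 64.2 to 77.5 in control males, and the 8 enteroendocrine markers to 519.7 to 583 in dsxRNAi males and 652 to 676 in control males. The part of these differences in the mitochondrial values was not tested.

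In females the mitochondrial messenger RNAs other than mt:ND2 did not pass the test under dsxRNAi. Of the 13 protein-coding genes 0 rose and 1 fell, while edgeR called 3.46% of all genes tested in either direction, 1.91% as higher and 1.55% as lower, and 1 of 13 passed at an unadjusted p under 0.05. The median log2 change was -0.083, beside -0.00085 over all genes tested, and 11 of 13 were below 0. Without control female 2, 8 of 13 were above 0 with a median of 0.012. The groups did not overlap for 2 of the 13, mt:ND2 and mt:ND4L, against 17.0% of all genes tested. The complex IV subunit mt:CoI averaged 9917 ± 642 normalised CPM in dsxRNAi females and 9425 ± 787 in control females (log2 change 0.07, 95% interval -0.19 to 0.33). Its partner mt:CoII averaged 1982 ± 90.8 in dsxRNAi females and 2021 ± 177 in control females, and mt:CoIII averaged 7229 ± 454 in dsxRNAi females and 7465 ± 705 in control females. For mt:Cyt-b the average was 4007 ± 209 in dsxRNAi females and 4222 ± 425 in control females. The complex V subunit mt:ATPase6 averaged 1349.7 ± 59.7 in dsxRNAi females and 1429 ± 148 in control females, and mt:ATPase8 averaged 11.8 ± 1.25 in dsxRNAi females and 13.4 ± 2.80 in control females. These groups overlapped. Of the complex I subunits, mt:ND1 averaged 622 ± 16.5 in dsxRNAi females and 666 ± 95.4 in control females, and mt:ND3 had 185, 186 and 165 in dsxRNAi females and 172, 221 and 179 in control females. The low row mt:ND4L averaged 0.935 ± 0.109 in dsxRNAi females and 1.54 ± 0.436 in control females (log2 change -0.72, edgeR adjusted p = 0.364), and mt:ND6 averaged 8.85 ± 0.0790 in dsxRNAi females and 10.2 ± 3.27 in control females. The row mt:ND5 averaged 803 ± 55.4 in dsxRNAi females and 783 ± 94.6 in control females (log2 change 0.036), and mt:ND4 averaged 576 ± 48.2 in dsxRNAi females and 604 ± 67.7 in control females (log2 change -0.067). The dsxRNAi effects of the sexes on these 2 genes differed by -0.50 for mt:ND5 (edgeR adjusted p = 0.113) and by -0.54 for mt:ND4 (edgeR adjusted p = 0.0941), so the difference between the sexes was not called. Without control female 1 both differences were called, at -0.59 (edgeR adjusted p = 0.0385) and -0.61 (edgeR adjusted p = 0.0412), and DESeq2 called both at adjusted p = 0.00539 and 0.00294.

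**Figure D3:**
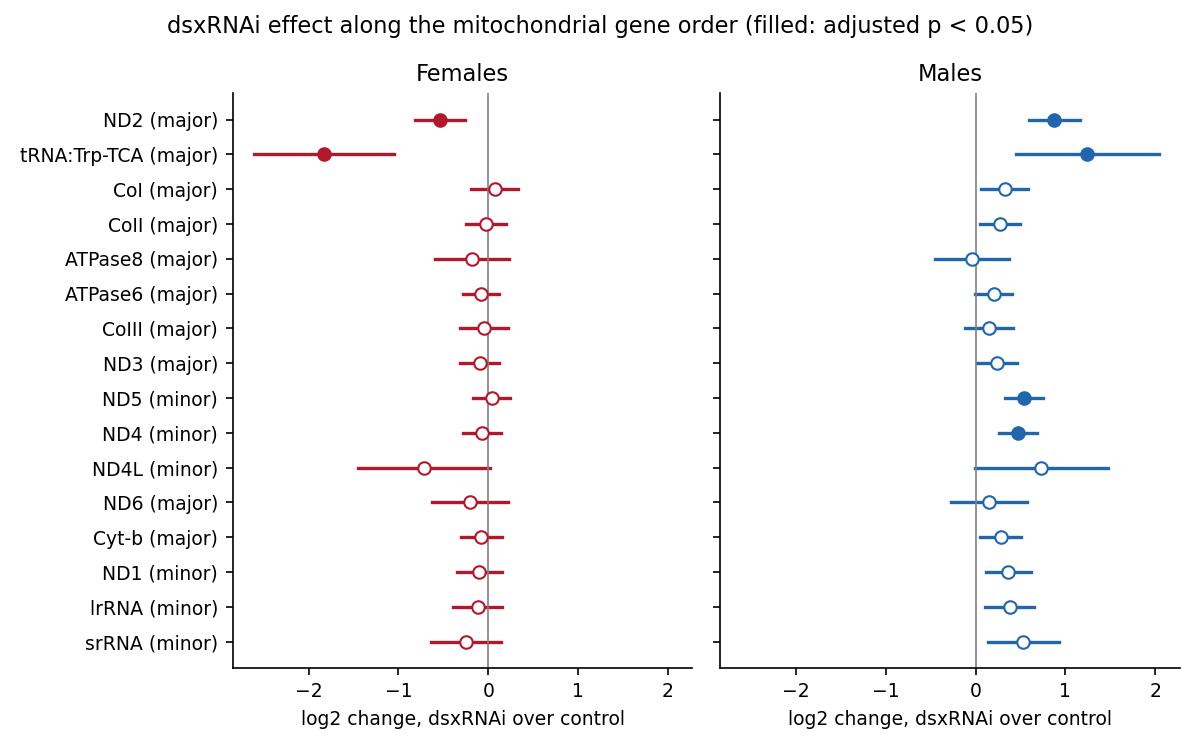
Fitted log2 change (points) with 95% intervals (lines) of dsxRNAi over control in females (left) and males (right), for the protein-coding and rRNA rows and tRNA:Trp-TCA in genome order from top to bottom, with the strand in brackets; filled points have an edgeR adjusted p under 0.05. ND2 and tRNA:Trp-TCA, at the top, lie left of 0 in females (-0.54 and -1.83) and right of 0 in males (0.88 and 1.24).

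The complex I subunit mt:ND2 (FBgn0013680) changed in opposite directions in the sexes. Its levels were 23.7, 26.3 and 21.3 normalised CPM in dsxRNAi females and 30.3, 41.3 and 32.0 in control females. In males it had 52.2, 44.2 and 38.8 under dsxRNAi and 25.0, 23.8 and 24.8 in controls. All 3 dsxRNAi females lay below the control females, and all 3 dsxRNAi males lay above the control males. The change was -0.54 ± 0.13 on the log2 scale in females, 1.45-fold lower (SE; edgeR adjusted p = 0.0421), and 0.88 ± 0.13 in males, 1.84-fold higher (edgeR adjusted p = 0.000968). The female effect differed from the male effect by -1.42 ± 0.18 (edgeR adjusted p = 0.00311), and mt:ND2 was the 1 protein-coding mitochondrial gene called in this test, which called 0.805% of all genes, 0.258% with a positive and 0.547% with a negative difference. Behind these levels were 858 to 1851 raw counts per library. The difference between the sexes was called under all 21 alternative settings run, with values from -1.54 to -1.12, and the male change under all 16. The female change was called under 10 of 16 settings. It was not called in a fit of the female libraries alone (-0.54, edgeR adjusted p = 0.0767), nor without dsxRNAi female 1 (adjusted p = 0.118), 2 (0.0503) or 3 (0.151), nor without control female 2 (0.0826) or 3 (0.0663), all by edgeR.

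The tRNA gene next to mt:ND2 had the same pattern at far lower counts. The row mt:tRNA:Trp-TCA (FBgn0013709; 1264 to 1329, major strand) begins at the base after mt:ND2 ends, with 0 bases between them, and encodes the mitochondrial tRNA for tryptophan. It overlaps mt:tRNA:Cys-GCA of the opposite strand by 8 bases. It had 10, 13 and 10 counts in dsxRNAi females and 60, 39 and 25 in control females. In males it had 24, 25 and 20 counts under dsxRNAi and 8, 14 and 13 in controls. Neither pair of groups overlapped. The log2 change was -1.83 ± 0.36 in females (SE; edgeR adjusted p = 0.0132) and 1.24 ± 0.37 in males (edgeR adjusted p = 0.0389). The effects in females and males differed by -3.08 ± 0.51 (edgeR adjusted p = 0.0179), called under 18 of 20 alternatives. Without dsxRNAi female 1 this difference was -2.99 (edgeR adjusted p = 0.0551), and without dsxRNAi female 3 it was -3.03 (edgeR adjusted p = 0.055). The male change was called under 5 of 15 alternatives. It lost its call without any 1 of the 6 male libraries, with edgeR adjusted p from 0.0657 to 0.124, with total counts (0.0682), with no expression filter (0.0585), with the replicate block (0.0525) and with scaling to the mitochondrial protein-coding total (0.081). The female change was called under 12 of 15. It lost its call without dsxRNAi female 1 (edgeR adjusted p = 0.0594) or 3 (0.0562) and in a fit of the female libraries alone (0.0659). The row on the other side of mt:ND2, mt:tRNA:Met-CAT, had 0 to 7 counts per library and did not pass the filter, and whether reads that span mt:ND2 and its neighbours were counted for either is not given in the sources used here.

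**Figure D4:**
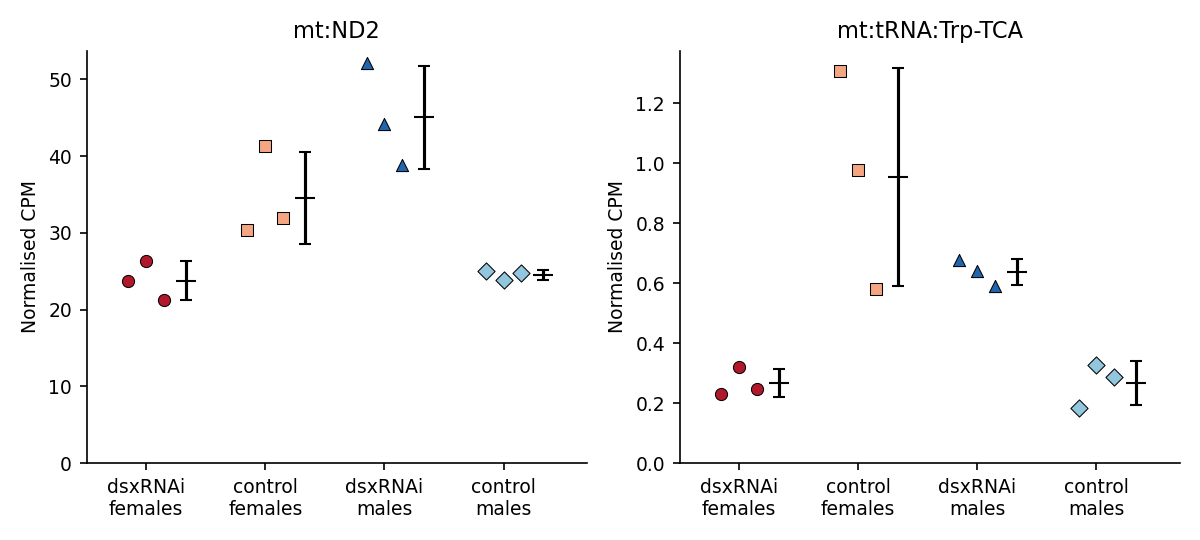
Normalised CPM of mt:ND2 (left) and mt:tRNA:Trp-TCA (right) in each library, with the group mean and SD. In both rows the 3 dsxRNAi female libraries lie below the control females and the 3 dsxRNAi male libraries above the control males; for ND2 the dsxRNAi males reach 38.8 to 52.2 and the control males 23.8 to 25.0.

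The other tRNA rows had few counts in these poly-A selected libraries. Of the 22, 3 had 0 counts in all libraries, which allows up to 3 counts per library or 8.3e-06% of all counts, and 15 more had at most 15 counts in any library and failed the filter. Of the 4 that passed, mt:tRNA:Leu-TAA, between mt:CoI and mt:CoII, had 27 to 80 counts per library, mt:tRNA:Tyr-GTA 6 to 27 and mt:tRNA:Ile-GAT 2 to 28, and edgeR called 0 of these 3 in either sex under dsxRNAi or in the difference between the sexes. At an unadjusted p under 0.05, 0 of them passed in these comparisons, and DESeq2 called 0.

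The large rRNA was higher in females than in males in controls. The row mt:lrRNA (FBgn0013686) had 42723, 40242 and 39041 normalised CPM in dsxRNAi females and 42347, 47524 and 42512 in control females. It had 44761, 36956 and 41422 in dsxRNAi males and 31897, 33081 and 29691 in control males. The control males were the lowest 3 of the 12 libraries. In controls females exceeded males by a log2 change of 0.48 ± 0.13 (SE; edgeR adjusted p = 0.0169), lost without control male 1 (0.49, edgeR adjusted p = 0.0544) or control male 3 (0.44, edgeR adjusted p = 0.0704). Under dsxRNAi the value of females against males was -0.013 (edgeR adjusted p = 0.956). The dsxRNAi effect was -0.12 in females (edgeR adjusted p = 0.766) and 0.38 in males (edgeR adjusted p = 0.0637). The male effect was called without dsxRNAi male 2 (0.46, edgeR adjusted p = 0.0292) and by DESeq2 (0.39, adjusted p = 0.000152). The effects of the sexes differed by -0.50 (edgeR adjusted p = 0.227), a difference that DESeq2 called (-0.51, adjusted p = 0.0026). The small rRNA mt:srRNA averaged 14.2 ± 3.57 normalised CPM in dsxRNAi females, 16.8 ± 2.76 in control females, 17.6 ± 2.50 in dsxRNAi males and 12.1 ± 1.38 in control males, and edgeR called no difference. For the male groups of mt:srRNA the log2 change was 0.53 (edgeR adjusted p = 0.0706), which DESeq2 called.

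Within a library, the rRNA counts relative to the protein-coding counts separated the sexes. This ratio does not depend on library scaling. Nearly all rRNA counts came from mt:lrRNA, with 19292828 over the 12 libraries against 7410 for mt:srRNA. Its log2 values were 0.62, 0.56 and 0.65 in dsxRNAi females and 0.76, 0.68 and 0.72 in control females. They were 0.52, 0.41 and 0.47 in dsxRNAi males and 0.32, 0.35 and 0.43 in control males. Each female library lay above each male library of the same genotype and of the other. With genotype as stratum, females exceeded males by 0.25, 1.19-fold (exact two-sided permutation p = 0.005, the smallest that 400 arrangements can give). The adjusted p of this permutation test was 0.05 over the 10 permutation tests, which is not under 0.05. A single result at the smallest p of 0.005 cannot be adjusted lower over 10 tests, so this threshold could not decide. The difference was 0.14 under dsxRNAi and 0.35 in controls, each with an exact permutation p = 0.1, the smallest for 3 against 3. With sex as stratum, dsxRNAi and control differed by -0.0043 (exact permutation p = 0.925), made up of -0.11 in females and 0.10 in males.

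The balance between the strands was compared in the same way. The log2 ratio of the 4 minor-strand to the 9 major-strand protein-coding genes was -3.61, -3.65 and -3.62 in dsxRNAi females and -3.67, -3.56 and -3.56 in control females. It was -3.47, -3.37 and -3.52 in dsxRNAi males and -3.70, -3.71 and -3.57 in control males. The dsxRNAi males averaged -3.45 ± 0.077 and the control males -3.66 ± 0.079 (SD, n = 3), a difference of 0.21 or 1.15-fold with no overlap (exact permutation p = 0.1, the smallest possible for 3 against 3). The difference in females was -0.028 (exact permutation p = 0.6). Averaged over both sexes it was 0.089 (exact permutation p = 0.13, adjusted p = 0.65). With genotype as stratum, females and males differed by -0.056 (exact permutation p = 0.375, adjusted p = 0.6667). Each gene entered its sum by its counts, so mt:CoI and mt:CoIII weighed most on the major strand. On the minor strand mt:ND5, mt:ND4 and mt:ND1 made up nearly all counts. The male difference in this ratio is therefore not separate from the calls of mt:ND5 and mt:ND4 given above.

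**Figure D5:**
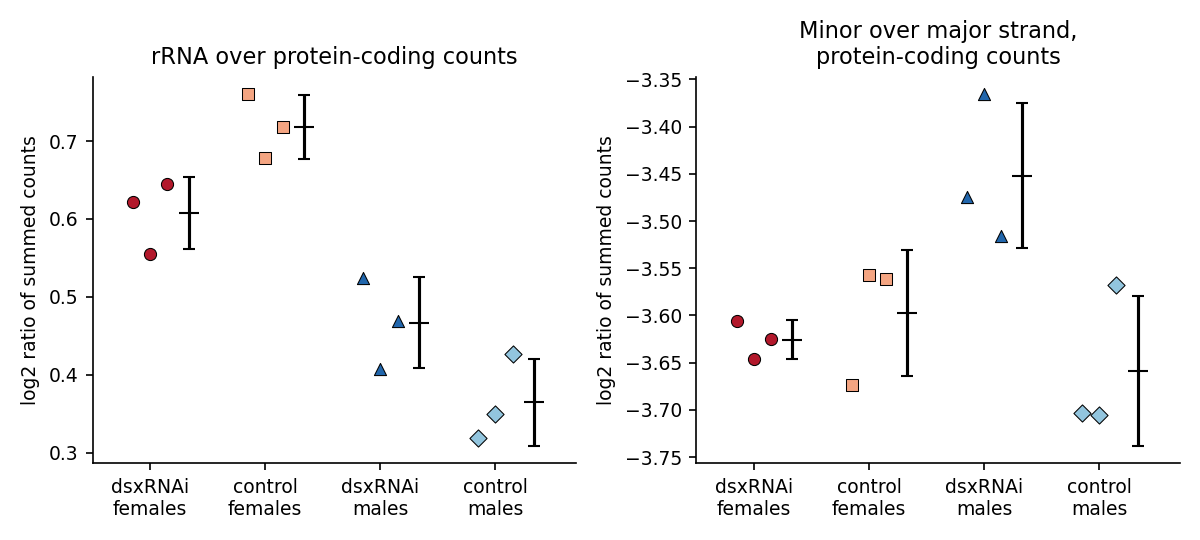
Log2 ratio of summed rRNA to summed protein-coding mitochondrial counts (left) and of minor-strand to major-strand protein-coding counts (right) in each library, with the group mean and SD. On the left the female libraries run from 0.56 to 0.76 and the male libraries from 0.32 to 0.52; on the right the dsxRNAi males, -3.52 to -3.37, lie above the other groups, whose highest library is at -3.56.

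The sexes were also compared within each genotype. Under dsxRNAi, 4 of the 13 were lower in females than in males and 0 were higher, where edgeR called 14.8% of all genes tested, 7.76% as higher and 7.06% as lower. They were mt:ND2 (log2 change -0.92 ± 0.13, SE, edgeR adjusted p = 0.00113), mt:ATPase6 (-0.33 ± 0.093, edgeR adjusted p = 0.0331), mt:ND4 (-0.33 ± 0.096, edgeR adjusted p = 0.0401) and mt:Cyt-b (-0.35 ± 0.10, edgeR adjusted p = 0.0427). The ATP synthase subunit mt:ATPase6 had 1388, 1380.0 and 1281 normalised CPM in dsxRNAi females against 1699, 1718 and 1679.9 in dsxRNAi males. Cytochrome b, mt:Cyt-b, had 4243, 3935 and 3844 in dsxRNAi females against 5272, 4864 and 5177 in dsxRNAi males. In both, the groups were apart, as they were for 9 of the 13 genes and for 35.7% of all genes tested. The median log2 change of the 13 was -0.30, beside 0.010 over all genes. Leaving out any 1 of the 6 libraries left 1 or 2 of the 4 calls, and mt:ND2 was called each time. With total counts and no scaling factor the median was -0.13 and mt:ND2 alone was called, while the median over all genes moved to 0.17 and edgeR called 24.0% of all genes tested, 20.1% as higher and 3.85% as lower.

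In controls, 1 of the 13 protein-coding genes was higher in females than in males and 0 were lower, where edgeR called 20.0% of all genes tested, 10.7% as higher and 9.27% as lower. It was mt:ND2, with a log2 change of 0.49 ± 0.13 (SE; edgeR adjusted p = 0.0177), which lost its call without control male 1 (edgeR adjusted p = 0.0503) or control male 2 (0.0638). Without control female 1 mt:ND5 and mt:ND4 were called too (edgeR adjusted p = 0.0338 and 0.0468). The median over the 13 genes was 0.15, beside -0.0054 over all genes tested, and 3 of the 13 did not overlap, against 37.4% of all genes tested. The neighbour mt:tRNA:Trp-TCA had a log2 change of 1.83, higher in females, in controls (edgeR adjusted p = 0.00355) and had a log2 change of -1.25, lower in females, under dsxRNAi (edgeR adjusted p = 0.0407). The call in controls held under all 15 alternatives. The call under dsxRNAi held under 5 of 15, and was lost without any 1 of the 6 dsxRNAi libraries (edgeR adjusted p from 0.0645 to 0.118), with total counts (0.0622), with no expression filter (0.0642), with the replicate block (0.051) and with scaling to the mitochondrial protein-coding total (0.0801). Fat body markers, which include the yolk protein genes, summed to 19.3 to 48.2 normalised CPM in dsxRNAi females, 81.4 to 148 in control females, 2.90 to 11.2 in dsxRNAi males and 3.09 to 6.53 in control males, and their part in the sex comparisons was not tested. Accessory gland markers reached 84.8 normalised CPM in control male 1 and at most 0.148 in the other libraries.

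Calls under dsxRNAi were counted for nuclear genes that act on the mitochondrial genome. The counts stand beside 8.05% of all genes tested called higher and 6.59% called lower in males, and 1.91% called higher and 1.55% called lower in females. Of 6 tested genes of mitochondrial transcription, which include the RNA polymerase mtRNApol and the DNA-packaging activator TFAM, edgeR and DESeq2 each called 0 in either sex, and 0 passed at an unadjusted p under 0.05 by edgeR. The log2 changes of TFAM were -0.037 in females and 0.13 in males, and those of mtRNApol 0.0005 in females and 0.063 in males. Between the sexes in controls 1 of the 6 was called, mtRNApol, where 10.7% of all genes tested were called higher in females and 9.27% lower. In controls mtRNApol was higher in females than in males by 0.41 (edgeR adjusted p = 0.0382), at 44.2 ± 7.13 normalised CPM in control females and 33.4 ± 0.26 in control males. Of 5 tested genes of mitochondrial DNA replication, 1 rose in dsxRNAi males, the topoisomerase Top3alpha (log2 change 0.54, edgeR adjusted p = 0.0334), which was not called with total counts and no scaling factor. In females edgeR and DESeq2 each called 0 of the 5, and 0 passed at an unadjusted p under 0.05 by edgeR. Of 11 tested genes of mitochondrial RNA processing and stability, 1 rose in dsxRNAi males. In females edgeR and DESeq2 each called 0 of the 11, and 1 passed at an unadjusted p under 0.05 by edgeR. The gene called in males was scu, a subunit of mitochondrial RNase P, which cuts tRNAs from the precursors, and also a dehydrogenase. It averaged 54.1 normalised CPM in dsxRNAi females, 47.5 in control females, 71.8 in dsxRNAi males and 47.2 in control males (males: log2 change 0.61, edgeR adjusted p = 0.0016).

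Of 62 tested nuclear subunits of complexes I, III, IV and V, the partners of the mitochondrial subunits, 39 rose and 0 fell in dsxRNAi males, where 8.05% of all genes tested were called higher and 6.59% lower, with a median log2 change of 0.34, while in females edgeR and DESeq2 each called 0, 2 passed at an unadjusted p under 0.05 by edgeR, and the median was 0.043. With total counts and no scaling factor, 6 of the 62 were called in males, all as higher, where 3.39% of all genes tested were called higher and 29.6% lower, and the median was 0.084, with 52 above 0. The largest list was complex I, with 22 of 32 higher in males, among them ND-13B (log2 change 0.65, edgeR adjusted p = 0.000284) and ND-39 (0.50, edgeR adjusted p = 0.00296). Of 71 tested proteins of the mitochondrial ribosome, which holds the 2 rRNAs described above, 26 rose in dsxRNAi males (median 0.23), beside the same 8.05% of all genes, and 1 rose in dsxRNAi females, beside 1.91% of all genes. With total counts and no scaling factor, 2 rose and 2 fell in males with a median of -0.020. Complex II, which has no subunit encoded in the mitochondrial genome, had 3 of 4 genes higher in males. The medians stand beside 0.28 for the 13 mitochondrial genes in males and -0.083 in females, and no test of the difference between nuclear and mitochondrial genes was made.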

How the data were processed

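The deposited values are raw read counts per gene for 12 libraries. Poly-A selected, directional libraries were made from 200 ng of RNA and sequenced as 100 bp pairs, per the labels' protocols. TopHat2 2.0.11, featureCounts and build dm6 are named in the submitters' processing notes. How strand, annotation and read filters were set in the counting is not given in the sources used here. Of 17558 rows, 171 without a symbol held 2.17% of counts. They were tested but not named. Positions came from Ensembl annotation release 115 on dm6 coordinates, which held 17252 of the row identifiers.

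Counts were fitted with edgeR 4.0.16 (R 4.3.3): minimum count 10, TMM scaling, robust quasi-likelihood, 4 group means, prior count 0.125 for fitted log2 changes. This left 9686 genes, and calls used a Benjamini-Hochberg adjusted p under 0.05 over all of them. Counts at an unadjusted p under 0.05 are given without the share of all genes at that threshold, and were not read as results. Shares and ratios were compared by exact permutation tests (scipy 1.17.1). The fit was tested on simulated data. The Wilson intervals of shares and the floors cover counting error only. The intervals of log2 changes come from the edgeR fit and include the spread between libraries.

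The members and lists were chosen with earlier results of these data known. Each protein-coding and rRNA row is named, as are tRNA rows that passed the filter. From each nuclear list up to 3 called genes with the smallest p could be named; mtRNApol, TFAM and mt:tRNA:Met-CAT were named after their values were seen. Marker lists were enterocyte, progenitor, enteroendocrine, muscle, Malpighian tubule, fat body, testis, accessory gland and ovary. Alternatives for the gene tests were other scalings, DESeq2 1.42.0, other filters, fits of the compared groups, a replicate block, dispersion without robust estimation and an adjusted p under 0.01. For the shares they were other denominators and all mitochondrial rows as the numerator. Each library was also left out in turn. Scaling to the mitochondrial protein-coding total was added after seeing the data.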

Additional observations from a re-analysis of the deposited data

Results flagged for a closer look

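Rows whose dsxRNAi effect differed between females and males in a test of the difference itself numbered 2 among the 19 mitochondrial rows tested. That test called 0.805% of all genes tested. The 2 rows adjoin, and how reads that span both were counted is not given in the sources used here. For mt:ND2 the effect in females minus that in males was -1.42 on the log2 scale (edgeR adjusted p = 0.00311), with all 3 dsxRNAi libraries lower than controls in females and all 3 higher in males. For the adjoining mt:tRNA:Trp-TCA it was -3.08 (edgeR adjusted p = 0.0179), with the same separation of the libraries and at most 60 counts in any library.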

How the results depend on the processing

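Counts of called protein-coding genes moved as follows. DESeq2 also called more of all genes tested than edgeR did. Under dsxRNAi in males it called 1793 against 1418, and between the sexes under dsxRNAi 1796 against 1436. In the difference between the sexes it called 343 against 78. In females under dsxRNAi, 0 were called in a fit of the compared groups and 0 at adjusted p under 0.01, against 1, and leaving out a library gave 0 to 1. In males under dsxRNAi, 7 were called by DESeq2 and 1 when scaled to the mitochondrial protein-coding total, against 3; leaving out a library gave 3 to 3. Between the sexes in controls, that scaling and adjusted p under 0.01 each left 0, and leaving out a library gave 0 to 3, with 0 without control male 1 or 2 and 3 without control female 1. Between the sexes under dsxRNAi, 7 were called by DESeq2 and 1 each with total counts, with that scaling and at adjusted p under 0.01, against 4; leaving out a library gave 1 to 2. In the difference between the sexes, DESeq2 called 3, and leaving out a library gave 1 to 3, with 3 without control female 1.

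The labels do not say whether the replicate numbers pair the libraries. Correlations of same-numbered libraries ran from -0.368 to 0.211, and those of differently numbered libraries from -0.344 to 0.315. With 3 libraries per group these correlations cannot settle whether a number marks a shared batch. With the replicate block, 2 protein-coding genes instead of 4 were called between the sexes under dsxRNAi, and the counts in the other comparisons stayed within 1.5 times.

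Shares of counts from protein-coding genes depended on the denominator. For dsxRNAi in males the difference was 0.27 with the TMM library size (exact permutation p = 0.1, the smallest possible), against 0.021. With all mitochondrial rows, rRNA included, as the numerator over total counts, the sexes in controls differed by 0.29 (exact permutation p = 0.1). The protein-coding share of that comparison differed by 0.083. These and dsxRNAi in females (-0.12 to -0.0059) kept their sign under every denominator, and the other 3 comparisons changed sign. Under dsxRNAi, females against males was -0.045 without the 10 most abundant nuclear genes and -0.15 with the TMM library size. With sex as stratum, dsxRNAi against control was 0.038 and 0.13 with the same denominators, and with genotype as stratum females against males was -0.011 with the TMM library size. With all mitochondrial rows as the numerator, the comparison of the sexes within genotype was 0.19 (exact permutation p = 0.03), which is not a protein-coding share. With each gene weighing the same, the sexes differed by 0.034 in the strand ratio, against -0.056 with summed counts. In the same way, dsxRNAi and control differed by 0.024 in the rRNA ratio, against -0.0043. Leaving out a library gave shares of -0.029 to 0.091 for dsxRNAi in males, -0.058 to 0.0497 for the sexes under dsxRNAi and -0.040 to 0.021 for dsxRNAi within sex, and rRNA ratios of -0.019 to 0.011 for dsxRNAi within sex. The rRNA difference between the sexes kept its direction at 0.23 to 0.26 (exact permutation p 0.005 to 0.01). The causes were not tested.

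Over all genes, calls in females under dsxRNAi were 335, 601 by DESeq2, 222 in a fit of the groups and as few as 206 without a library. In males they were 1418, 3199 with total counts, 2645 with mitochondrial scaling and as few as 846 without a library. Between the sexes under dsxRNAi they were 1436, 2324 with total counts and as few as 644 without a library. The difference between the sexes had 78 calls, 251 with total counts, 217 with mitochondrial scaling, 343 by DESeq2 and 32 to 128 without a library. The tRNA rows and mt:ND4L, with at most 80 counts in any library, had the lowest counts of the rows tested.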

Other observations

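In most libraries, the greater part of the mitochondrial genes lay on the same side of the group mean. Relative to its group's mean log2 level, control female 2 was higher for 13 of the 13 protein-coding genes (median 0.17, TMM factor 0.956), and control female 1 was lower for 13 (median -0.15, TMM factor 1.14). The library dsxRNAi female 3 was lower for 13 (median -0.11), dsxRNAi male 1 was higher for 13 (median 0.066), and control male 3 was lower for 11 (median -0.13). In dsxRNAi females 1 and 2, 12 were higher, and in control males 1 and 2, 11 were. Control female 3 and dsxRNAi male 3 were each lower for 10 and higher for 3, and dsxRNAi male 2 was lower for 8 and higher for 5. The share of all genes on the same side is not given here, so a shift of the whole library cannot be told apart.

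Nuclear genes of mitochondrial upkeep outside the complexes and the ribosome were also counted. In dsxRNAi males 8.05% of all genes tested were called higher and 6.59% lower. Of 7 tested regulators of mitochondrial biogenesis, 1 rose and 1 fell in dsxRNAi males by edgeR: Myc, a growth transcription factor, at 108 normalised CPM in dsxRNAi males and 80.3 in control males (log2 change 0.42, adjusted p = 0.0106), and ERR, a nuclear receptor of energy metabolism, at 60.03 in dsxRNAi males and 84.9 in control males (-0.50, adjusted p = 0.00961). In controls, 2 of the 7 regulators were higher in females than in males and 0 were lower, where 10.7% of all genes tested were called higher and 9.27% lower. Among these 2 was the coactivator srl, the fly relative of PGC-1. It had 36.3 normalised CPM in control females and 17.7 in control males (log2 change 1.04, edgeR adjusted p = 0.000446). Under dsxRNAi srl was not called, at -0.22 in females (edgeR adjusted p = 0.527) and 0.44 in males (edgeR adjusted p = 0.0504). Of 12 tested genes of mitochondrial dynamics and quality control, 4 rose in dsxRNAi males, among them the chaperone Hsp60A (log2 change 0.35, edgeR adjusted p = 0.0175) and the fission factor Drp1 (0.28, edgeR adjusted p = 0.0111), and in females edgeR and DESeq2 each called 0 under dsxRNAi, with 1 at an unadjusted p under 0.05 by edgeR. With total counts and no scaling factor the regulators had 0 higher and 5 lower calls in dsxRNAi males, and the dynamics and quality control genes 0 higher and 4 lower, where 3.39% of all genes tested were called higher and 29.6% lower.

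Marker lists had these summed levels in normalised CPM. Enterocyte markers of females summed to 49926 to 52743 under dsxRNAi and 36459 to 52048 in controls. Progenitor markers were at 51.6 to 65.0 in dsxRNAi females and 52.1 to 72.0 in control females. Enteroendocrine markers were at 472 to 503 in dsxRNAi females and 403 to 495 in control females. Malpighian tubule markers were at 213 to 237 in dsxRNAi females, 176 to 218 in control females, 192 to 228 in dsxRNAi males and 175 to 223 in control males. Testis markers reached at most 0.255 and ovary markers at most 2.23.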
